A study of Mus musculus with 17 samples.

Results

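CNS tumors of the SHH subtype from a mouse model of rhabdoid tumor were compared with healthy mouse brain over all genes. The comparison used 6 of the 17 libraries of the series, the 3 SHH CNS tumors and the 3 healthy brains, chosen by their titles. Of 50600 listed genes, 21494 passed the filter on low counts and were tested. All mice were of strain C57BL/6J, the SHH tumors had the genotype SMARCB1 -/- and the brains were wild type (WT). The labels give no age, no sex, no driver of the deletion and no number of animals behind the libraries, so each p-value speaks to the spread of these libraries. Whether each library comes from another animal is not known. The 4 CNS tumors of the Myc subtype, also SMARCB1 -/-, were used to test directly where SHH tumors differed from them, and for a few genes their own change against brain is given. They and the other 7 libraries, extracranial tumors and syngeneic grafts, also entered the fit, which shares 1 estimate of spread over all 17 libraries.

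Rhabdoid tumors are cancers of early childhood that lose SMARCB1, part of the core of SWI/SNF complexes, which move nucleosomes and open chromatin. Their brain form includes a subtype named after Sonic hedgehog (SHH). In this pathway the ligand binds Patched receptors, which otherwise keep Smoothened out of the primary cilium, and active Smoothened lets the Gli transcription factors switch on their targets, Patched among them. In the developing nervous system the pathway patterns the ventral neural tube and drives the division of cerebellar granule cell precursors.

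Levels are given as CPM, counts scaled by the TMM-adjusted library size, always in the order of library number for brain 1, 2 and 3 and for SHH tumor 1, 2 and 3. Means of the Myc tumors carry the SD between their libraries (n = 4), and log2 fold changes of SHH tumors over brain carry their SE. A gene was called, and is said to have risen or fallen, at a Benjamini-Hochberg adjusted p under 0.05 in the edgeR quasi-likelihood test over all 21494 genes. CPM is not divided by gene length, so levels are compared between libraries and not between genes. Total counts were 127086670, 103095016 and 130835711 in the brains and 35662656, 36192408 and 71390917 in the tumors.

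Smarcb1 (ENSMUSG00000000902.13, GRCm38 chromosome 10, 75896769 to 75921617, minus strand), the gene named in the genotype, was at 132, 121 and 119 CPM in the brains and 33.3, 2.52 and 6.23 CPM in the tumors. All 3 tumors were far below all 3 brains, and SHH tumor 1 was the highest of the tumors. It fell by 3.15 ± 0.72 on the log2 scale (edgeR adjusted p = 0.0277). The call was lost without SHH tumor 3 (adjusted p = 0.119) and without brain 1, 2 or 3 (0.0601, 0.0807 and 0.0897). Without SHH tumor 1 the log2 fold change was -4.82 (adjusted p = 0.00363).

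Libraries of both groups differed in what else they held. The 24 skeletal muscle markers summed to 509, 33.7 and 28.6 CPM in the brains and the 16 pituitary markers to 1426, 12.7 and 9.79 CPM, so brain 1 stood apart. The 20 markers of myelinating oligodendrocytes summed to 11456, 356 and 269.7 CPM in the tumors against 247, 222 and 193 CPM in the brains, so SHH tumor 1 stood apart. By Xist and Ddx3y all 3 tumors and brain 3 were read as female and brains 1 and 2 as male. The 30 markers of immature and migrating neurons summed to 21705, 27114 and 27631 CPM in the brains, where Dcx, a gene of migrating neurons, was at 972, 1607 and 1367 CPM. The brains held little of the myelin genes Mobp (0.222, 0.0971 and 0.0398 CPM) and Mbp (48.7, 36.5 and 35.8 CPM). As the labels give no age, a difference in age between the groups cannot be told apart from one between tumor and brain. In these bulk samples fewer cells of a type and less RNA per cell cannot be told apart.

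In all, 524 genes (2.44% of those tested) rose and 416 (1.94%) fell in SHH tumors. Of these, 484 of the 524 and 314 of the 416 changed at least 2-fold, and 448 and 363 were protein coding. All 3 tumors lay above all 3 brains for 3377 genes (15.7%) and below them for 4443 (20.7%). These shares of all genes, 2.44% risen, 1.94% fallen, 15.7% above and 20.7% below, are the background for the list counts that follow. The median log2 fold change over all tested genes was -0.02. SHH tumor 3 was the tumor farthest from brain for 354 of the 524 genes that rose and 241 of the 416 that fell, and without it 97 and 45 genes were called. Leaving out the other libraries gave 513 and 308 calls without SHH tumor 1, 349 and 197 without SHH tumor 2, and 244 and 205, 54 and 59, and 27 and 35 without brain 1, 2 and 3. With sex read from Ddx3y as a covariate 281 rose and 233 fell, and with brain 1 and SHH tumor 1 left out together 304 and 170. That covariate used Ddx3y alone in all 17 libraries, and syngeneic grafts 1 and 2, read as male, also held Xist (542 and 802 CPM). By the numbers the submitters gave their files, brain 3 and SHH tumor 2 fall outside the range of the other 4 libraries, and among those 4 alone 5 genes rose and 5 fell. What these numbers stand for is not given in the labels. Of the 128 calls named here 78 held with sex as a covariate, 6 within that range of file numbers and 92 of 125 with only the 2 groups fitted. DESeq2 called 13.6% of the genes it gave an adjusted p and limma voom 34.9%, yet voom lost 7 of the 128.

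**Figure D1:**
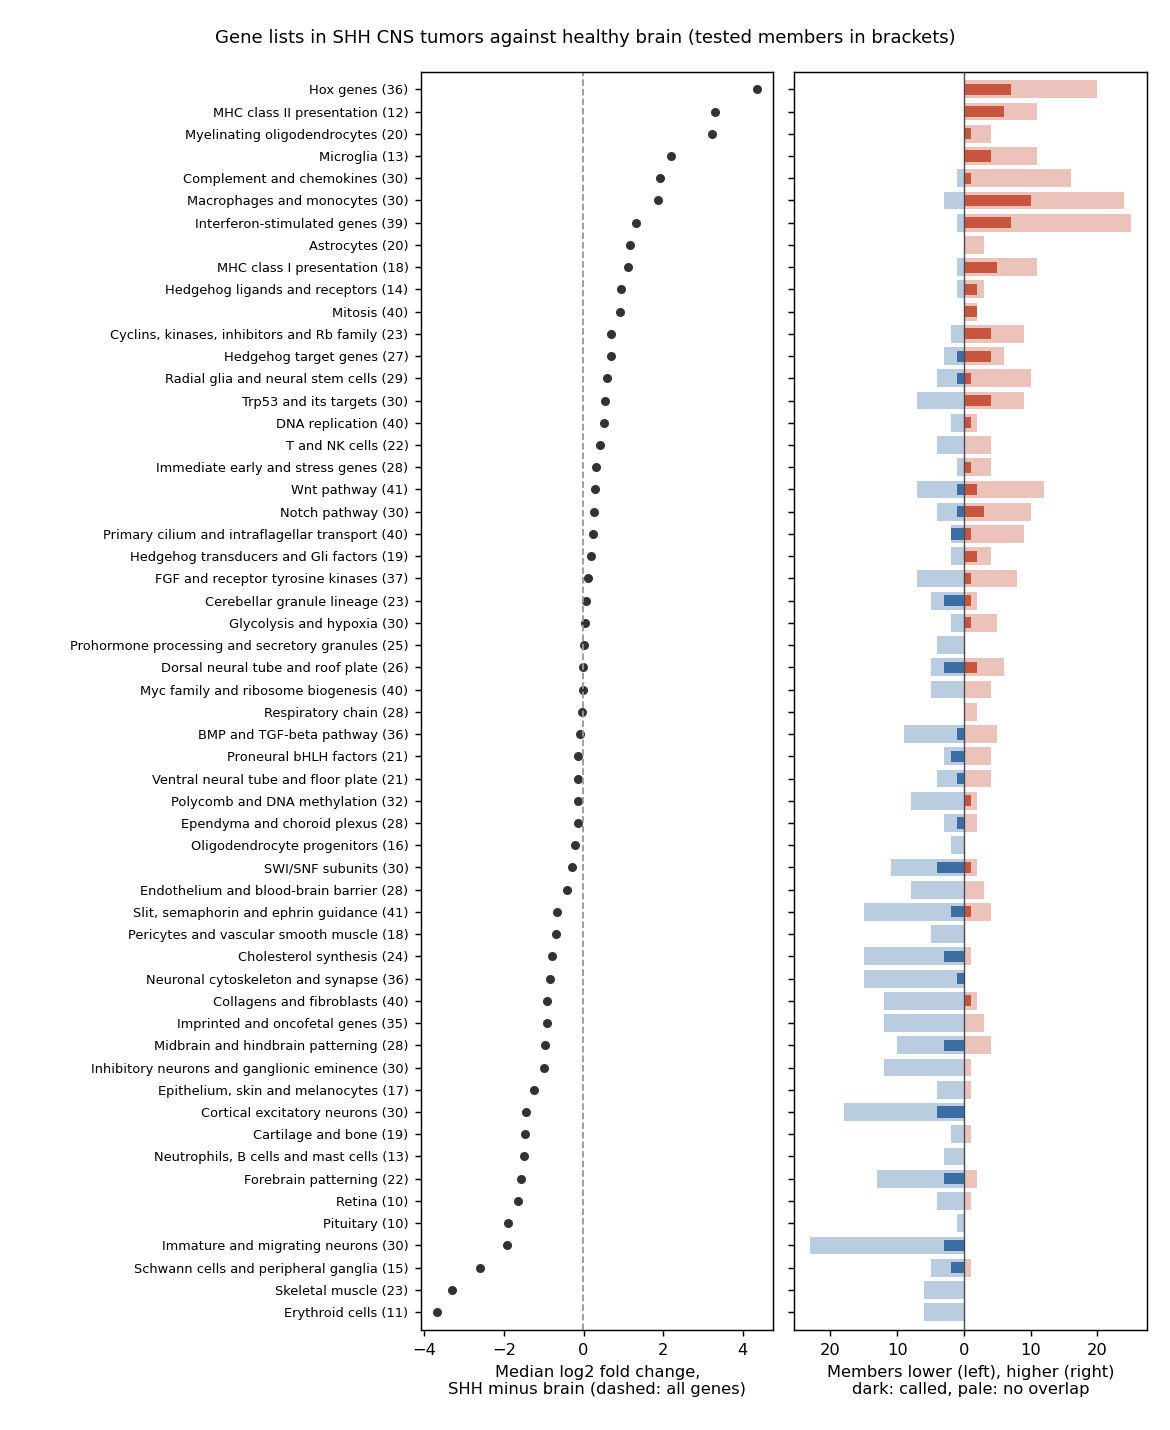
The left panel shows, for each of 56 gene lists, the median log2 fold change of SHH CNS tumors over healthy brain across its tested members, with a dashed line at the median of all tested genes (-0.02). The right panel shows how many members were called higher or lower by edgeR (dark bars) and for how many the 3 tumors did not overlap with the 3 brains (pale bars). Hox genes lie highest with a median of 4.37, though of 39 listed 12, 13 and 25 had no count in brain 1, 2 and 3. The list of immature and migrating neurons has the most members with all tumors below all brains, 23 of 30.

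In the Hedgehog pathway the receptor gene Ptch1, the signal transducer Smo and both Evc genes rose in SHH tumors, while no Gli gene passed. Of 14 ligands, receptors and co-receptors 2 rose and 0 fell, with a median log2 fold change of 0.93. The ligand gene Shh was at 1.91, 2.8 and 1.4 CPM in the brains and 20.2, 19 and 2.11 CPM in the tumors. SHH tumors 1 and 2 were above every brain and SHH tumor 3 was within the range of the brains, and the difference did not pass (2.75 ± 1.21, edgeR adjusted p = 0.2). Ptch1 (chromosome 13, 63508328 to 63573598, minus strand), which encodes the receptor and is itself a target, was at 94.9, 81.8 and 58.6 CPM in the brains and 214, 476 and 339 CPM in the tumors. All 3 tumors lay above all 3 brains, and Ptch1 rose by 2.13 ± 0.54 (edgeR adjusted p = 0.0411). Smo (chromosome 6, 29735503 to 29761365, plus strand), which encodes Smoothened, was at 54.2, 35.9 and 27.5 CPM and 79.4, 130.2 and 193 CPM. It rose without overlap between the groups (1.77 ± 0.46, edgeR adjusted p = 0.0438).

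The co-receptors differed between the tumors. Boc, a co-receptor, was at 20.2, 23.5 and 20.3 CPM in the brains and 61.4, 99.2 and 107 CPM in the tumors, with no overlap, but did not pass (edgeR adjusted p = 0.286). Cdon, its relative, was at 68.4, 48.2 and 56 CPM and 76.5, 63.5 and 492 CPM, so that SHH tumor 3 alone stood far above the brains. Gas1, another co-receptor, was at 33.6, 20.4 and 20.9 CPM and 30.7, 32.6 and 57.6 CPM, and the groups overlapped. Hhip, a decoy for the ligand and a target, was at 10.8, 6.19 and 11.4 CPM and 84.1, 31.7 and 3.83 CPM. SHH tumors 1 and 2 were above the brains and SHH tumor 3, the tumor highest in Cdon, was below them.

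Of 19 transducers and Gli factors 2 rose and 0 fell (median log2 fold change 0.18). Both that rose, Evc and Evc2, encode partners that sit together at the base of the cilium and carry the signal from Smoothened, and their genes neighbour each other on chromosome 5. Evc was at 11.9, 9.61 and 7.66 CPM in the brains and 18.6, 34.2 and 50.1 CPM in the tumors (1.82 ± 0.33, edgeR adjusted p = 0.0108). Evc2 was at 7.57, 9.39 and 10.1 CPM and 17.8, 30.4 and 62.1 CPM (2.03 ± 0.37, edgeR adjusted p = 0.0127). For both genes SHH tumor 3 was the highest and SHH tumor 1 the lowest of the tumors, and the groups did not overlap. The repressor gene Sufu was at 31, 37 and 32 CPM and 41.5, 56.9 and 79.3 CPM, and the ciliary motor gene Kif7 at 15, 10.4 and 10.9 CPM and 5.18, 5.43 and 6.28 CPM. These did not overlap either, Sufu higher and Kif7 lower in tumors, but neither passed (edgeR adjusted p = 0.273 and 0.102).

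Gli1, the most direct readout of the pathway, was at 30.1, 7.26 and 6.98 CPM in the brains and 38, 74.4 and 27.3 CPM in the tumors (1.65 ± 0.85, edgeR adjusted p = 0.272). Brain 1 was above SHH tumor 3, while brains 2 and 3 were below all tumors. Gli2, the main activator, was at 13.1, 10.1 and 9.81 CPM and 29.1, 56.4 and 108 CPM with no overlap (2.55 ± 1.40, edgeR adjusted p = 0.309). Gli3, which mostly acts as a repressor, was at 26.4, 21.3 and 30.2 CPM and 19.7, 44.5 and 24.3 CPM, and its direction flipped without SHH tumor 2 (-0.24) and with sex as a covariate (-0.04). Limma voom, which called 34.9% of all genes, called Gli1 and Gli2 (adjusted p = 7.43e-05 and 0.000414) and also Shh (0.0016), Boc (0.00185) and Hhip (0.0312). With only these 6 libraries fitted Gli2 and Boc passed (edgeR adjusted p = 0.0393 and 0.0239).

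Of 27 listed targets 4 rose and 1 fell (median 0.68). Ccnd1 (chromosome 7, 144929931 to 144939925, minus strand), which encodes cyclin D1 and drives entry into the cell cycle, was at 36.9, 38 and 35.2 CPM in the brains and 187, 331 and 382 CPM in the tumors. The tumors were high in each library and the brains were within a narrow range (3.03 ± 0.54, edgeR adjusted p = 0.0108). Its kinase partner Cdk6 was at 39.3, 28.6 and 21.5 CPM and 86.9, 212 and 138 CPM (2.29 ± 0.56, edgeR adjusted p = 0.0378). Hes1, a repressor of neuronal differentiation shared with the Notch pathway, was at 5.49, 6.22 and 5.98 CPM and 15.6, 37 and 44.4 CPM (2.45 ± 0.48, edgeR adjusted p = 0.0157). Sfrp1, which encodes a secreted Wnt antagonist, fell from 92.1, 73.5 and 61.1 CPM to 15.4, 19.9 and 5.47 CPM (-2.48 ± 0.66, edgeR adjusted p = 0.0493). Mycn, a target that drives growth, was at 29.1, 56.4 and 47.2 CPM and 27.4, 85.5 and 249 CPM. SHH tumor 1 was below every brain and SHH tumors 2 and 3 were above them, and the difference did not pass (1.45 ± 0.68, edgeR adjusted p = 0.233). The targets Foxa2 and Fgf15, of the floor plate and of midline signalling, were highest in SHH tumor 2, at 0.489, 39.7 and 5.26 CPM and 3.79, 71.5 and 5.21 CPM in the tumors. The brains held 0.889 to 1.84 and 0.683 to 6.39 CPM of these, and neither gene passed (edgeR adjusted p = 0.203 and 0.373).

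The difference from Myc CNS tumors was tested directly. Ptch1 was at 26.8 ± 3.55 CPM in the Myc tumors (n = 4), below the brains, and was higher in SHH than in Myc tumors by 3.68 ± 0.51 (edgeR adjusted p = 0.000166). Gli1 was higher by 3.04 ± 0.80 (edgeR adjusted p = 0.00837), Gli2 by 3.91 ± 1.33 (0.03), Hhip by 3.11 ± 0.89 (0.0129) and Shh by 5.31 ± 1.21 (0.00369). Mycn was at 0.31 ± 0.154 CPM in Myc tumors and differed by 8.53 ± 0.83 (edgeR adjusted p = 1.96e-05). In the other direction, Evc and Evc2 were higher in Myc tumors (65.7 ± 9.9 and 96.1 ± 22 CPM), with differences of -0.94 ± 0.30 and -1.38 ± 0.35 (edgeR adjusted p = 0.0235 and 0.00679). Ccnd1 was also higher there, at 733 ± 377 CPM (-1.29 ± 0.48, edgeR adjusted p = 0.0461), and Smo did not differ beyond its spread (0.62 ± 0.41, edgeR adjusted p = 0.243). Across all genes 21.9% were higher and 19% lower in SHH than in Myc tumors, against 6 and 1 of the 14 ligand and receptor genes. Of the 8 Hedgehog genes called against brain, 1, 4 and 7 were lost without SHH tumor 1, 2 and 3, 5, 8 and 8 without brain 1, 2 and 3, and 4 with sex as a covariate, with edgeR adjusted p up to 0.179. The calls of Ptch1 and Smo were among those lost with sex as a covariate (edgeR adjusted p = 0.086 and 0.0547), with log2 fold changes of 2.13 and 2.01 there.

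**Figure D2:**
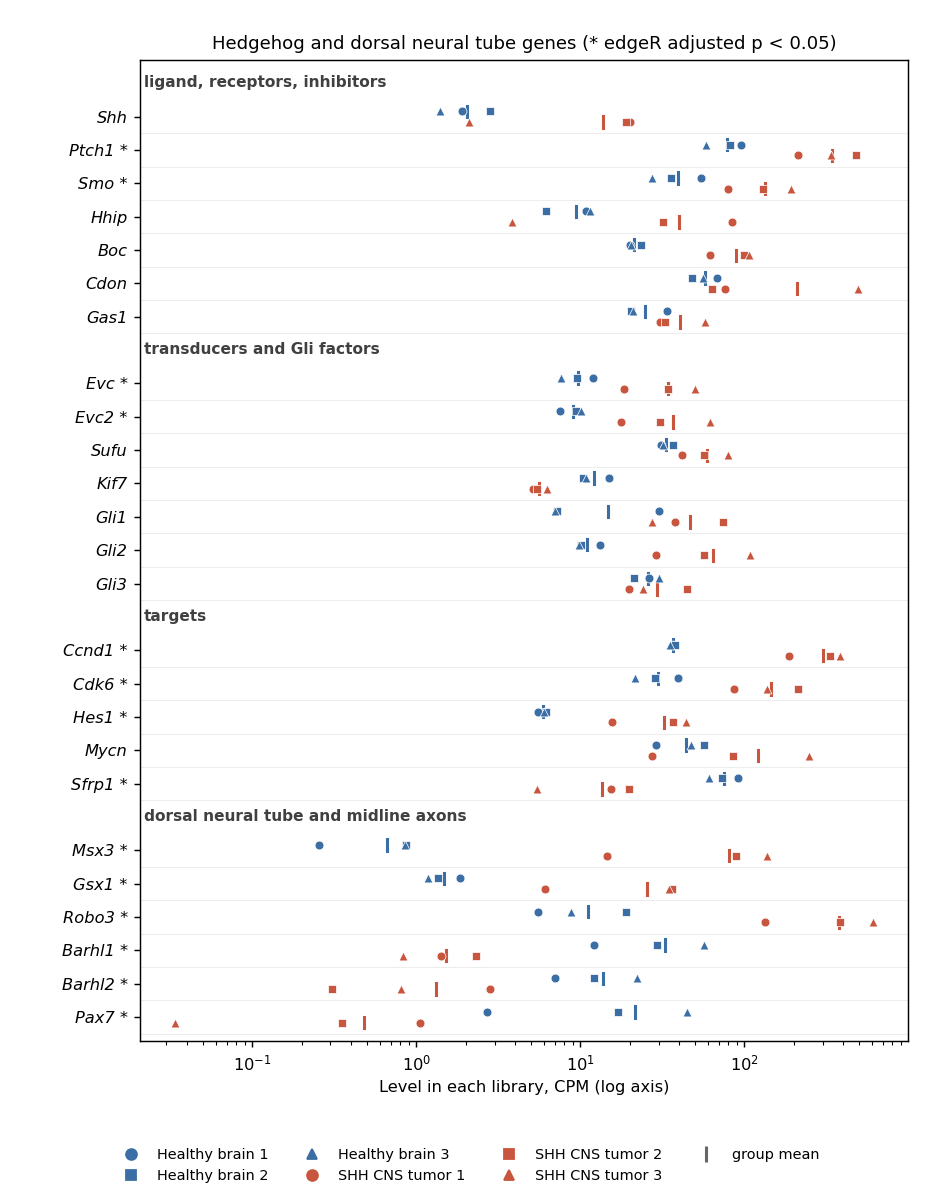
Each row shows the CPM of a gene in the 3 healthy brains (blue) and the 3 SHH CNS tumors (red) on a log axis, with a symbol per library number and a bar at each group's mean. Ptch1, Smo, Evc, Evc2 and Ccnd1 separate the groups, Shh, Hhip and Cdon spread widely between the 3 tumors, and Msx3 and Robo3 lie far to the right of the brains while Barhl1, Barhl2 and Pax7 lie to the left.

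The primary cilium is the organelle in which the signal is relayed. Of 40 cilium and intraflagellar transport genes 1 rose and 2 fell (median 0.24), against 2.44% and 1.94% of all genes. Ift80, a subunit of the transport train, was at 15.6, 24.3 and 18.4 CPM in the brains and 56.7, 57.3 and 101 CPM in the tumors (1.88 ± 0.39, edgeR adjusted p = 0.0184). Kif3a and Kif3b, which form the motor that drives the train outward and also moves cargo in axons, both fell. Kif3a was at 173, 199 and 209.8 CPM and 90.1, 95.7 and 66.3 CPM (-1.21 ± 0.25, edgeR adjusted p = 0.0188), and Kif3b at 143, 145 and 159 CPM and 67.7, 78 and 48.9 CPM (-1.20 ± 0.24, 0.0159). The groups did not overlap for any of the 3 genes. Leaving out libraries one at a time, 0, 0 and 3 were lost without SHH tumor 1, 2 and 3, 1, 3 and 3 without brain 1, 2 and 3, and 0 with sex as a covariate, with edgeR adjusted p up to 0.0948.

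Transcription factors of the dorsal neural tube changed in both directions. Of the 26 tested members of that list 2 rose and 3 fell, and the median was -0.01. Msx3 (chromosome 7, 140046157 to 140049089, minus strand), a homeobox gene of dorsal progenitors, was at 0.254, 0.864 and 0.859 CPM in the brains and 14.5, 88.5 and 138 CPM in the tumors. Every tumor was at least 10-fold above every brain, and it rose by 6.92 ± 1.27 (edgeR adjusted p = 0.0123). Gsx1 (chromosome 5, 147188696 to 147190947, plus strand), a homeobox gene of progenitors of dorsal interneurons and of the ganglionic eminences, was at 1.86, 1.36 and 1.19 CPM and 6.08, 36 and 34.5 CPM (4.12 ± 0.92, edgeR adjusted p = 0.0257). SHH tumors 2 and 3 were alike and SHH tumor 1 was lower, though above all brains. Olig3, a factor of the dorsal progenitor domains, was at 0.183, 0.602 and 0.0159 CPM and 18, 12.1 and 17.2 CPM. The groups did not overlap, but it did not pass (edgeR adjusted p = 0.133). DESeq2 called it (adjusted p = 0.0201). Msx1, of the roof plate, was at 5.46, 3.82 and 2.83 CPM and 10.5, 12.4 and 42.5 CPM (edgeR adjusted p = 0.356).

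Barhl1, Barhl2 and Pax7 moved the other way. Barhl1, a homeobox gene of granule cell precursors and of dorsal commissural neurons, was at 12.2, 29.3 and 56.7 CPM in the brains and 1.42, 2.3 and 0.826 CPM in the tumors (-4.43 ± 1.19, edgeR adjusted p = 0.0498). Barhl2 was at 6.99, 12.2 and 22.1 CPM and 2.83, 0.306 and 0.804 CPM (-3.39 ± 0.84, edgeR adjusted p = 0.0467). Pax7, of dorsal neural tube and midbrain, was at 2.71, 16.9 and 44.6 CPM and 1.06, 0.353 and 0.034 CPM (-5.49 ± 1.47, edgeR adjusted p = 0.0498). The brains themselves spread widely for these, brain 3 being the highest for each and brain 1 the lowest, yet no tumor reached the lowest brain. The granule lineage genes Atoh1 and Zic1 did not pass in either direction. Atoh1, which defines granule cell precursors, was at 0.0794, 0.951 and 0.00795 CPM in the brains and 0.335, 0.776 and 0.543 CPM in the tumors (edgeR adjusted p = 0.77). Zic1 was at 204, 250.2 and 178 CPM and 298, 210.0 and 447 CPM (edgeR adjusted p = 0.823), and the groups overlapped for both. Of 23 tested granule lineage genes 1 rose, Ccnd1, and 3 fell, Barhl1, Barhl2 and Sfrp1.

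Of 21 tested ventral neural tube genes 0 rose and 1 fell (median -0.13). The gene that fell was Prdm12, a factor of ventral interneuron progenitors and of pain-sensing neurons, at 7.45, 4.08 and 3.35 CPM in the brains and 0.103, 0.588 and 0.0793 CPM in the tumors (-4.28 ± 1.01, edgeR adjusted p = 0.0477). Robo3 (chromosome 9, 37415669 to 37433246, minus strand), an axon receptor that lets dorsal commissural axons cross the midline, was at 5.49, 19 and 8.75 CPM and 133, 384 and 609 CPM. Each tumor was far above each brain (5.08 ± 1.10, edgeR adjusted p = 0.0222). Robo3, Gsx1 and Msx3 were also higher than in Myc tumors, by 5.73 ± 1.002, 11.11 ± 1.18 and 6.83 ± 1.11 (edgeR adjusted p = 0.00069, 3.01e-05 and 0.000443). Of the 7 calls named here for the dorsal and ventral neural tube and Robo3, 3, 4 and 7 were lost without SHH tumor 1, 2 and 3, 6, 7 and 7 without brain 1, 2 and 3, and 4 with sex as a covariate, with edgeR adjusted p up to 0.184.

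Hox genes, which set position along the body axis and are silent in forebrain and midbrain, were higher in SHH tumors, and each tumor was led by another cluster. Of 36 tested Hox genes 7 rose and none fell, for 20 all 3 tumors were above all 3 brains, and the median log2 fold change was 4.37. Of the 39 listed, 12, 13 and 25 had no count in brain 1, 2 and 3, and 3, 4 and 5 in the tumors. A gene without counts in the brains cannot fall, and genes could pass the filter on the counts of another group. That none fell and the size of the median are therefore partly set by the floor and the filter. Among all genes 2.44% rose and 15.7% lay above all brains. The 11 Hoxa genes summed to 1.52, 5.08 and 0.0318 CPM in the brains and 1.21, 1.06 and 35.4 CPM in the tumors, so that SHH tumor 3 alone was high. The 10 Hoxb genes summed to 3.87, 6.22 and 0.0636 CPM and 61.8, 7.59 and 2.49 CPM, led by SHH tumor 1. The 9 Hoxd genes summed to 2.02, 0.951 and 0.239 CPM and 32.9, 191 and 5.74 CPM, led by SHH tumor 2 with SHH tumor 1 next. The 9 Hoxc genes stayed low throughout, at 0.572, 1.08 and 0.0159 CPM and 1.03, 0.917 and 1.13 CPM. Brain 3 held almost no Hox transcripts, at most 0.239 CPM per cluster, and brains 1 and 2 held a few CPM.

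**Figure D3:**
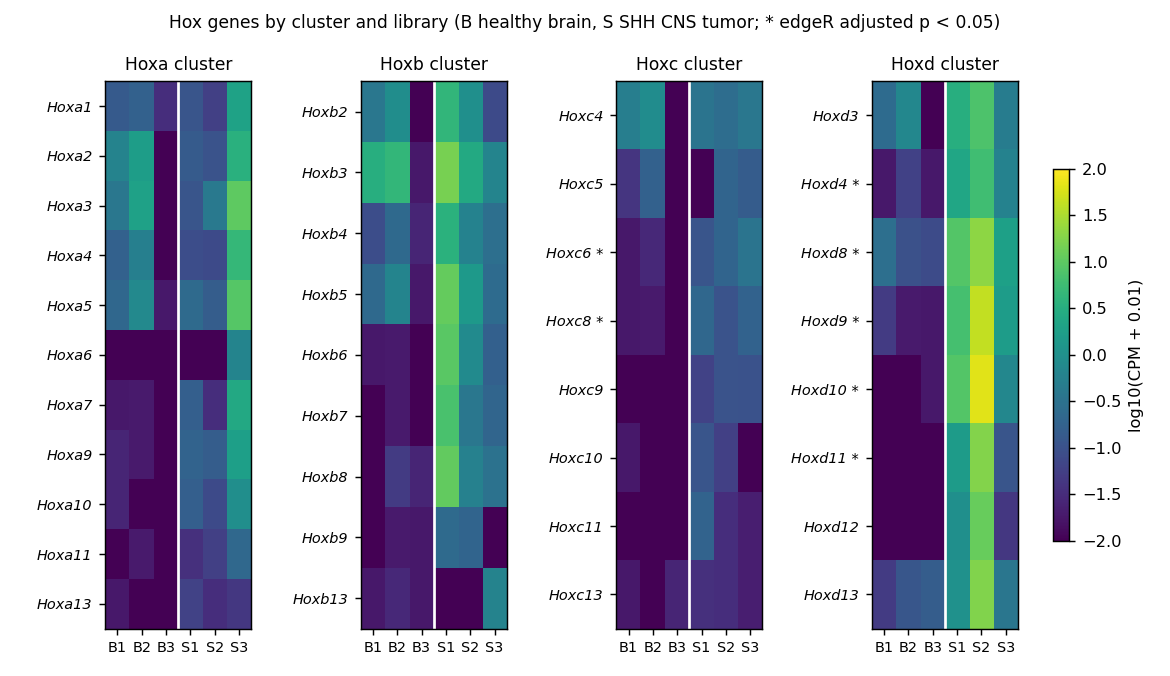
Each column is a library (B1 to B3 healthy brain, S1 to S3 SHH CNS tumor) and each row a tested Hox gene, ordered by number within its cluster, with colour giving log10(CPM + 0.01). The Hoxa cluster is bright in S3, the Hoxb cluster in S1 and the Hoxd cluster in S2, while the Hoxc cluster stays dark in all tumors.

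The genes that rose were 5 of the Hoxd cluster (GRCm38 chromosome 2, 74668310 to 74765142) and 2 of the Hoxc cluster. Hoxd10 was at 0, 0 and 0.00795 CPM in the brains, 1 count in all, and 8.6, 66.3 and 0.691 CPM in the tumors (edgeR adjusted p = 0.0274). Hoxd9 was at 0.0397, 0.00971 and 0.00795 CPM and 6.57, 43.6 and 1.63 CPM (9.66 ± 2.47, edgeR adjusted p = 0.0429). Hoxd8 was at 0.278, 0.0873 and 0.0716 CPM and 8.6, 20.7 and 1.87 CPM (6.13 ± 1.48, edgeR adjusted p = 0.0349). In each of these SHH tumor 2 was highest and SHH tumor 3 lowest, and all 3 tumors were above all brains. Hoxd11 had no count in any brain and 1.57, 18 and 0.102 CPM in the tumors, at least 776-fold higher than a floor of 3 counts over the brains together (edgeR adjusted p = 0.0314). Hoxd4 rose by 7.02 ± 1.76 (edgeR adjusted p = 0.04), but it overlaps Hoxd3, and reads of both may not be told apart. Hoxd3 was at 0.238, 0.699 and 0 CPM and 3.17, 7.55 and 0.464 CPM and did not pass (edgeR adjusted p = 0.29).

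At the far end of the cluster, Hoxd12 (0.979, 11.7 and 0.034 CPM in the tumors, none in the brains, at least 501-fold) and Hoxd13 (0.0397, 0.107 and 0.143 and 1.03, 17.5 and 0.362 CPM) did not pass (edgeR adjusted p = 0.131 and 0.0961). Hoxc6 and Hoxc8 rose by 4.36 ± 1.01 and 4.37 ± 1.12 from 0 to 0.0194 and 0 to 0.00971 CPM in the brains (edgeR adjusted p = 0.03 and 0.0424). Their levels in the tumors stayed low, at 0.103, 0.188 and 0.34 and 0.206, 0.094 and 0.17 CPM, against 22.6 ± 16.5 and 49.6 ± 52.8 CPM in Myc tumors. With only the 2 groups fitted neither Hoxc6 nor Hoxc8 passed the filter on low counts, so their calls depend on the other groups. The difference from Myc tumors was called for both (-6.69 ± 0.94 and -8.29 ± 1.03, edgeR adjusted p = 0.000177 and 8.37e-05). In the Hoxb cluster, Hoxb6 was at 9.61, 0.799 and 0.159 CPM and Hoxb8 at 10.8, 0.564 and 0.317 CPM in the tumors, with no brain above 0.0388 CPM, and neither passed (edgeR adjusted p = 0.074 and 0.0989). Cdx2, a regulator of posterior Hox genes named here after its values were seen, had no count in any brain and 0.644, 5.24 and 4.38 CPM in the tumors (edgeR adjusted p = 0.00993). Of these 8 calls, 3, 6 and 5 were lost without SHH tumor 1, 2 and 3, 7, 7 and 8 without brain 1, 2 and 3, and 4 with sex as a covariate, with edgeR adjusted p up to 0.173.

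Most forebrain genes lay lower in SHH tumors and 3 of 22 passed, where 1.94% of all genes fell and 20.7% lay below all brains. Of 22 forebrain patterning genes 0 rose and 3 fell (Barhl2, Emx1 and Nkx2-4), for 13 all tumors were below all brains, and the median was -1.57. Emx1, a homeobox gene of the cortex, was at 3.41, 6.9 and 6.74 CPM in the brains and 0.386, 0 and 0.328 CPM in the tumors (-4.55 ± 1.12, edgeR adjusted p = 0.0378). Nkx2-4, of the hypothalamus, was at 7.98, 1.47 and 0.0398 CPM and 0, 0.047 and 0.0113 CPM (-7.27 ± 1.79, edgeR adjusted p = 0.0378). Brain 1 was the highest library, brain 3 was below SHH tumor 2, and so the groups overlapped. Lhx2, a cortical selector gene, was at 41.9, 68.3 and 77.2 CPM and 9.66, 6.63 and 2.98 CPM (edgeR adjusted p = 0.0571). All tumors were below all brains for Lhx2, though it did not pass.

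Of 28 tested midbrain and hindbrain genes 0 rose and 3 fell (median -0.97): Barhl1, Lmx1b and Tal1. Lmx1b, of serotonin and dopamine neurons, was at 16.4, 8.64 and 2.34 CPM in the brains and 0.695, 0.306 and 0.328 CPM in the tumors (-4.36 ± 0.97, edgeR adjusted p = 0.0255). Tal1, of inhibitory neurons of the midbrain, was at 9.47, 30.2 and 64 CPM and 8.11, 3.06 and 2.37 CPM (-2.94 ± 0.78, edgeR adjusted p = 0.0484). Otx2, which marks forebrain, midbrain and choroid plexus, was instead at 9.85, 31.4 and 60.3 CPM and 94.5, 92 and 199 CPM. All 3 tumors were above all 3 brains, and the difference did not pass (1.92 ± 1.13, edgeR adjusted p = 0.343). Against Myc tumors, which held 0.0314 ± 0.024 CPM, it was higher by 11.87 ± 1.60 (edgeR adjusted p = 0.000141).

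Some genes of cortical excitatory neurons fell in SHH tumors. Of 30 tested 4 fell and none rose, and for 18 all tumors were below all brains (median -1.45). Among all genes 1.94% fell and 20.7% lay below all brains. Tbr1 (chromosome 2, 61802930 to 61814114, plus strand), a factor of early cortical neurons, was at 30.6, 109 and 67.3 CPM in the brains and 4.87, 3.34 and 1.97 CPM in the tumors (-4.34 ± 0.80, edgeR adjusted p = 0.0127). Neurod6 was at 47.5, 195 and 200.3 CPM and 11.3, 4.75 and 4.43 CPM (-4.44 ± 0.85, edgeR adjusted p = 0.0189), and its relative Neurod2 at 46, 113 and 108 CPM and 6.29, 0.165 and 3.53 CPM (-4.74 ± 1.13, 0.0324). Brain 1 was the lowest brain for these 3 genes, and no tumor reached it. Of the 7 patterning and cortical calls named here and not already named with the neural tube, 2, 5 and 7 were lost without SHH tumor 1, 2 and 3, 4, 7 and 7 without brain 1, 2 and 3, and 5 with sex as a covariate, with edgeR adjusted p up to 0.212. Limma voom did not call Nkx2-4 (adjusted p = 0.359), and with only the 2 groups fitted it did not pass the filter on low counts.

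Some genes of young neurons fell too. Of 30 genes of immature and migrating neurons 3 fell, Dcx, Crmp1 and Robo2, and none rose, while for 23 all tumors were below all brains, and the list summed to 5702, 8849.7 and 4527 CPM in the tumors. Dcx (chromosome X, 143855842 to 143933311, minus strand), a microtubule protein of migrating neurons, was at 972, 1607 and 1367 CPM in the brains and 70.0, 101 and 14.4 CPM in the tumors (-4.41 ± 0.96, edgeR adjusted p = 0.0223). Crmp1, which relays semaphorin signals in growth cones, was at 1199.6, 1274 and 1316 CPM and 166, 258 and 32.1 CPM (-3.05 ± 0.68, edgeR adjusted p = 0.0253). In both, SHH tumor 3 was the lowest library. Robo2, an axon guidance receptor, was at 176, 315 and 331 CPM and 41.9, 52.1 and 36.4 CPM (-2.66 ± 0.66, edgeR adjusted p = 0.0394), the opposite direction to Robo3. Plxna2, a semaphorin receptor and with Robo2 and Robo3 one of 3 called among 41 guidance genes, was at 195, 305 and 272 CPM and 54.3, 78.8 and 89.1 CPM (-1.80 ± 0.46, edgeR adjusted p = 0.0413).

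Tuba1a (chromosome 15, 98949837 to 98953703, minus strand), the main alpha tubulin of young neurons, was at 5172, 6304 and 6327 CPM in the brains and 979.8, 1990.2 and 921 CPM in the tumors (-2.19 ± 0.29, edgeR adjusted p = 0.00359). Other alpha tubulin genes are close in sequence, so its counts are uncertain. Kif21b, a neuronal kinesin named after its values were seen, was at 578, 698 and 685 CPM and 81.9, 106 and 21.8 CPM (-3.23 ± 0.52, edgeR adjusted p = 0.00772), and Mpped1, a phosphodiesterase-like gene, at 168, 259 and 249.97 CPM and 9.63, 2 and 8.79 CPM (-5.05 ± 0.94, 0.013). Mapt, the tau gene, was the only one of 36 genes of neuronal cytoskeleton and synapse that passed, at 1844, 2309 and 2568 CPM and 392, 463 and 67 CPM (-2.87 ± 0.74, edgeR adjusted p = 0.0443). That list summed to 10836, 12847 and 14235 CPM in the brains and 12044, 6646 and 2377 CPM in the tumors, so SHH tumor 1 was within the brains and SHH tumor 3 far below them. Rbfox3, a nuclear protein of maturing neurons, was at 85.9, 88.5 and 114 CPM and 73.3, 34.4 and 25.6 CPM (edgeR adjusted p = 0.427), lower in all tumors.

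Of 30 genes of inhibitory neurons none passed in edgeR (2 had an unadjusted p under 0.05), 2 were called by DESeq2 and 10 by limma voom, and for 12 all tumors were below all brains (median -0.99). The share of all genes below all brains was 20.7%. Gad1, which makes the transmitter GABA, was at 300.2, 230.2 and 257 CPM in the brains and 298, 37.3 and 26.3 CPM in the tumors, so SHH tumor 1 was as high as the brains. Sst, a peptide of cortical interneurons, was at 50.8, 61.3 and 78.3 CPM and 24, 5.34 and 5.05 CPM with no overlap (edgeR adjusted p = 0.253). Against Myc tumors, SHH tumors were higher for 21 and lower for 0 of the 30 genes of immature and migrating neurons, and for 30 and 0 of the 36 of neuronal cytoskeleton and synapse. Of the 30 genes of inhibitory neurons 10 were higher and 4 lower, against 21.9% and 19% of all genes. The difference was 7.54 ± 0.99 for Dcx, 6.47 ± 0.77 for Mapt and 5.63 ± 0.83 for Rbfox3 (edgeR adjusted p = 0.000118, 6.4e-05 and 0.000232). Of the 8 neuronal calls, 5, 3 and 6 were lost without SHH tumor 1, 2 and 3, 4, 6 and 6 without brain 1, 2 and 3, and 3 with sex as a covariate, with edgeR adjusted p up to 0.154.

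**Figure D4:**
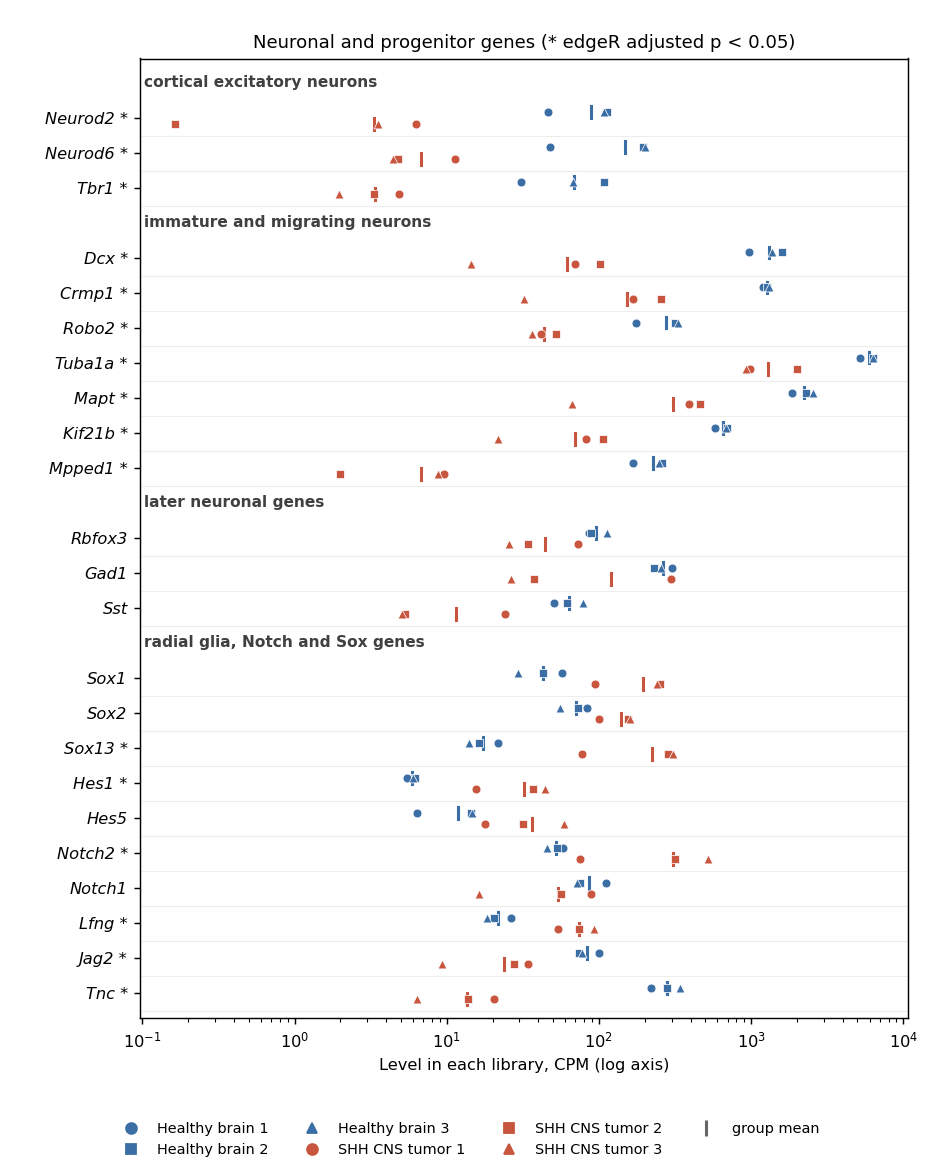
CPM of neuronal and progenitor genes in each healthy brain (blue) and SHH CNS tumor (red) on a log axis, with a symbol per library number and a bar at each group's mean. Genes of cortical and migrating neurons lie left of the brains in all 3 tumors, Gad1 of SHH tumor 1 lies among the brains, and Sox1, Sox13, Hes1 and Lfng lie to the right while Tnc lies far to the left.

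Progenitor genes were mixed. Of 29 genes of radial glia and neural stem cells 1 rose, Hes1, and 1 fell, Tnc, and the median was 0.60. Tnc (chromosome 4, 63959785 to 64047015, minus strand), an extracellular matrix protein of radial glia, was at 219, 279 and 342 CPM in the brains and 20.4, 13.8 and 6.37 CPM in the tumors (-4.37 ± 0.66, edgeR adjusted p = 0.00532). Every tumor was at least 10-fold below every brain. Sox2, a factor of neural stem cells, was at 84, 72.4 and 55.2 CPM and 100.1, 156 and 161 CPM, and Sox1 at 57.4, 42.9 and 29.2 CPM and 94.7, 251 and 242 CPM. All tumors were above all brains for both, but neither passed (edgeR adjusted p = 0.61 and 0.109). Sox13, named by its small adjusted p, was at 21.8, 16.2 and 14.1 CPM and 77.6, 286 and 308 CPM (3.69 ± 0.48, edgeR adjusted p = 0.00359). Vim, an intermediate filament of radial glia, was at 325, 231 and 200.4 CPM and 608, 993 and 731 CPM (edgeR adjusted p = 0.191).

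Of 30 Notch pathway genes 3 rose and 1 fell (median 0.27). The ligand gene Jag2 fell from 99.7, 73.5 and 77.3 CPM to 34.1, 27.5 and 9.34 CPM (-1.82 ± 0.43, edgeR adjusted p = 0.0322). Among the receptors Notch2 was at 58.2, 53.3 and 45.3 CPM and 75.3, 317 and 523 CPM (2.54 ± 0.60, edgeR adjusted p = 0.0314), and Notch1 at 111, 74.9 and 72.2 CPM and 89.2, 56.6 and 16.3 CPM (0.568). Notch2 was highest in SHH tumor 3, where Notch1 was lowest. Lfng, which adds sugars to Notch receptors, was at 26.6, 20.3 and 18.3 CPM and 53.8, 73.6 and 93.2 CPM (1.76 ± 0.42, edgeR adjusted p = 0.0346). The target gene Hes5 was at 6.38, 14.3 and 14.6 CPM and 18, 31.7 and 58.9 CPM (edgeR adjusted p = 0.181), and the 3 tumors lay above the 3 brains. Of these 6 progenitor and Notch calls, 0, 3 and 4 were lost without SHH tumor 1, 2 and 3, 4, 4 and 4 without brain 1, 2 and 3, and 3 with sex as a covariate, with edgeR adjusted p up to 0.149.

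In other signalling pathways few members passed, where 2.44% of all genes rose and 1.94% fell. Of 41 tested Wnt genes 2 rose, 1 fell (Sfrp1) and the median was 0.30. The ligand gene Wnt3 (chromosome 11, 103774150 to 103817957, plus strand), made in the dorsal neural tube, was at 9.62, 10.7 and 12.2 CPM in the brains and 49, 71.9 and 95.2 CPM in the tumors (2.73 ± 0.62, edgeR adjusted p = 0.0277). The receptor gene Fzd10 (chromosome 5, 128600844 to 128604093, plus strand), also of the dorsal midline, was at 7.07, 8.77 and 10.9 CPM and 109, 82 and 64.6 CPM (3.26 ± 0.61, edgeR adjusted p = 0.0127). All 3 tumors were above all 3 brains for both genes, SHH tumor 3 being the highest for Wnt3 and the lowest for Fzd10. Of 36 tested BMP and TGF-beta genes 0 rose and 1 fell, the activin receptor gene Acvr2a, at 161, 197 and 172 CPM and 40.2, 58.8 and 35.8 CPM (-1.97 ± 0.22, edgeR adjusted p = 0.00153). Of 37 genes of FGF and receptor tyrosine kinases 1 rose and 0 fell. Fgfr1, a receptor of fibroblast growth factors, was at 173, 107 and 145 CPM and 321, 528 and 1682 CPM (2.57 ± 0.68, edgeR adjusted p = 0.0479), with SHH tumor 3 far above the others.

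Fndc3c1 (chromosome X, 106420041 to 106485401, minus strand), an X-linked gene of the fibronectin type III family and one of the largest increases, was at 1.69, 0.311 and 0.159 CPM in the brains and 104, 472 and 942 CPM in the tumors (9.45 ± 2.07, edgeR adjusted p = 0.0235). All tumors were above all brains, and SHH tumor 3 was the highest. Of these 5 calls, 0, 2 and 3 were lost without SHH tumor 1, 2 and 3, 2, 4 and 4 without brain 1, 2 and 3, and 2 with sex as a covariate, with edgeR adjusted p up to 0.242.

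Some cell cycle regulators rose, and most genes of the cell cycle, replication and mitosis did not pass. Of 23 cyclins, kinases, inhibitors and Rb family genes 4 rose and 0 fell (median 0.68). These were Ccnd1, Cdk6, and Cdkn2a and Cdkn2c, which are among the genes that encode inhibitors of that pair. Cdkn2a (chromosome 4, 89274471 to 89294653, minus strand), which encodes p16 and the p53 activator p19Arf, was at 0.0556, 0.0679 and 0.0875 CPM in the brains and 2.09, 3.6 and 2.69 CPM in the tumors. Brains and tumors were each close together (5.27 ± 0.51, edgeR adjusted p = 0.00084), and Myc tumors were far higher, at 53.4 ± 33.9 CPM (edgeR adjusted p = 3.66e-05). Cdkn2c, which encodes p18, was at 8.39, 6.78 and 5 CPM and 14.5, 25.9 and 29.4 CPM (1.79 ± 0.34, edgeR adjusted p = 0.0136).

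Of 40 replication genes 1 rose, and of 40 mitosis genes 2 rose, with medians of 0.52 and 0.92, against 2.44% of all genes. Mcm3, a subunit of the replicative helicase, was at 15, 17.9 and 14.3 CPM in the brains and 15.4, 44.1 and 56.6 CPM in the tumors, and SHH tumor 1 was within the brains (1.30 ± 0.34, edgeR adjusted p = 0.0454). Kif20a, a kinesin of cytokinesis, was at 10.2, 12.5 and 7.33 CPM and 12.3, 34.5 and 42.5 CPM, with SHH tumor 1 within the brains again (1.57 ± 0.42, edgeR adjusted p = 0.0487). Anln, an actin-binding protein of the cleavage furrow that myelinating cells also express, was at 17, 11 and 8.66 CPM and 58.3, 27.9 and 29.3 CPM, and here SHH tumor 1 was the highest (1.65 ± 0.37, edgeR adjusted p = 0.0257). Mki67, a marker of dividing cells, was at 71.6, 80.0 and 42.4 CPM and 37.7, 144 and 125 CPM, lowest in SHH tumor 1, and did not pass (edgeR adjusted p = 0.402).

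Trp53 and some of its targets rose. Of 30 genes of Trp53 and its targets 4 rose and 0 fell (median 0.54). Trp53 itself, the tumor suppressor p53, was at 32.4, 44.9 and 37.4 CPM in the brains and 59.7, 95.2 and 128 CPM in the tumors (1.30 ± 0.26, edgeR adjusted p = 0.0154). Btg2, which slows division of progenitors, was at 22.7, 16.5 and 13 CPM and 75.1, 190.3 and 237 CPM (3.27 ± 0.54, edgeR adjusted p = 0.00861), in the same order of tumors. Pmaip1, which encodes the cell death protein Noxa, was at 3.88, 2.05 and 1.47 CPM and 45.6, 22.6 and 5.06 CPM (3.30 ± 0.66, edgeR adjusted p = 0.0168). Ddit4l, an inhibitor of mTOR signalling, was at 3.05, 4.14 and 3.51 CPM and 67.1, 44.8 and 13.5 CPM (3.55 ± 0.80, edgeR adjusted p = 0.0263). For Pmaip1 and Ddit4l the order of the tumors was the reverse of that for Trp53, with SHH tumor 1 highest. Cdkn1a, the p21 gene and the best known p53 target of cell cycle arrest, was instead lower in all tumors, at 51.8, 42.3 and 55.5 CPM and 22.9, 29.5 and 8.31 CPM, and did not pass (edgeR adjusted p = 0.133). Myc was at 20.4, 28.2 and 30.6 CPM and 10.3, 20.0 and 6.53 CPM (edgeR adjusted p = 0.107), below Myc tumors by a called difference of -3.37 ± 0.40 (edgeR adjusted p = 6.12e-05). None of 40 genes of the Myc family and ribosome biogenesis passed in edgeR (4 had an unadjusted p under 0.05) or DESeq2, and limma voom called 10. Of the 11 cell cycle and p53 calls, 2, 4 and 6 were lost without SHH tumor 1, 2 and 3, 5, 10 and 10 without brain 1, 2 and 3, and 3 with sex as a covariate, with edgeR adjusted p up to 0.204.

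Some SWI/SNF subunits other than Smarcb1 changed as well. Of 30 subunit genes 1 rose and 4 fell, Smarcb1 among them, and for 11 all tumors were below all brains (median -0.30). Bcl7c was at 149.9, 127 and 135 CPM in the brains and 29.7, 55.6 and 36.8 CPM in the tumors (-1.75 ± 0.30, edgeR adjusted p = 0.00909). Brd9, which defines the non-canonical form that lacks SMARCB1, was at 97.3, 112 and 111 CPM and 52.2, 58.6 and 59.3 CPM (-0.91 ± 0.17, edgeR adjusted p = 0.0134). Smarcc2, a scaffold subunit, was at 500.3, 497 and 502 CPM and 333, 343 and 299 CPM (-0.62 ± 0.16, edgeR adjusted p = 0.0424), a small difference between groups with little spread. Ss18 rose, from 34.8, 43.5 and 30.8 CPM to 59.5, 66.1 and 102 CPM (1.06 ± 0.22, edgeR adjusted p = 0.0197). The ATPase gene Smarca4 was at 209, 382 and 342 CPM and 196, 311 and 309 CPM and overlapped (edgeR adjusted p = 0.705). Actl6b, of the complex of mature neurons, was at 99.7, 147 and 158 CPM and 43.3, 50.2 and 11.2 CPM, below the brains in each tumor (edgeR adjusted p = 0.113).

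Polycomb complexes oppose SWI/SNF on chromatin. Of 32 genes of Polycomb and DNA methylation 1 rose and 0 fell, against 2.44% and 1.94% of all genes. Ring1, a ubiquitin ligase of Polycomb complex 1, was at 27.2, 31.5 and 32.8 CPM in the brains and 57.1, 65.5 and 66.2 CPM in the tumors (1.04 ± 0.24, edgeR adjusted p = 0.0314). Ezh2, the methyltransferase of Polycomb complex 2, was at 35.9, 91.1 and 58.2 CPM and 33.2, 76.3 and 83.6 CPM, and the groups overlapped (0.06 ± 0.52, edgeR adjusted p = 0.963), with a change of sign when SHH tumor 2 or 3 or brain 1 was left out. Of 35 imprinted and oncofetal genes none passed in edgeR (5 had an unadjusted p under 0.05), while DESeq2 called 2 and limma voom 11. The oncofetal gene Hmga2 was at 2.49, 2.81 and 1.74 CPM and 3.12, 13.4 and 10.3 CPM and Igf2bp1 at 7.59, 23.1 and 10.6 CPM and 0.567, 5.97 and 4.63 CPM, higher and lower in all tumors (edgeR adjusted p = 0.42 and 0.573). Of the 5 chromatin calls besides Smarcb1, 1, 2 and 4 were lost without SHH tumor 1, 2 and 3, 3, 4 and 4 without brain 1, 2 and 3, and 1 with sex as a covariate, with edgeR adjusted p up to 0.155.

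Some interferon-stimulated genes and MHC class I genes rose in SHH tumors. Interferons signal through transcription factors that bind short promoter elements and switch on antiviral and antigen presentation genes. Of 39 tested interferon-stimulated genes 7 rose and 0 fell, and for 25 all tumors were above all brains (median 1.31). Of 18 MHC class I presentation genes 5 rose and 0 fell, with 11 above all brains (median 1.12).

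Promoter sequences are shown for 4 genes that rose and that were chosen because they hold a motif. Each is at most 60 bases of the window before the RefSeq start of the gene on GRCm38.p6, 5′ to 3′ on the strand of the gene, with every match to GAAANNGAAA (N is any base, searched on both strands), a core of the interferon-stimulated response element, in capitals. The 3 matches of Isg15 overlap, and Ifit1 has 2.
Isg15 (chr4:156200856-156200915, minus strand): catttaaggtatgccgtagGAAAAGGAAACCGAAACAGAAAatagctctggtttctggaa
Ifit1 (chr19:34640779-34640838, plus strand): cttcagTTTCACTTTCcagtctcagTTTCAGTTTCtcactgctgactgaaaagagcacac
B2m (chr2:122147523-122147582, plus strand): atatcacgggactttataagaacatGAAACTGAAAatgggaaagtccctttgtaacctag
Igtp (chr11:58199497-58199555, plus strand): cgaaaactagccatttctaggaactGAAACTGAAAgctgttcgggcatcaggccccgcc
In windows from 250 bases before to 50 after the start the motif was found in 16 of 29 interferon-stimulated genes with a promoter entry (55.2%), in 4 of 15 MHC class I genes (26.7%) and in 1 of 8 MHC class II genes (12.5%), against 1079 of all 27025 promoters (3.99%). Among called genes with a promoter entry it was found in 4 of 5 interferon-stimulated genes, 1 of 4 MHC class I genes, B2m, and 1 of 4 class II genes. A match describes the letters of the window, not binding.

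Isg15, a ubiquitin-like antiviral protein, was at 0.707, 0.835 and 1.48 CPM in the brains and 5.92, 4.75 and 4.47 CPM in the tumors (2.32 ± 0.61, edgeR adjusted p = 0.0471). Ifit1, a sensor of viral RNA caps with close copies in the genome, was at 0.461, 0.32 and 0.851 CPM and 7.32, 1.5 and 2.59 CPM (2.79 ± 0.71, edgeR adjusted p = 0.0408). Igtp, an interferon-inducible GTPase, was at 1.45, 1.04 and 1.3 CPM and 10.3, 7.76 and 9.27 CPM (2.85 ± 0.56, edgeR adjusted p = 0.0157). The 3 tumors were alike for Isg15 and Igtp, while SHH tumor 1 led Ifit1. Oas1a, an antiviral enzyme in a family of near copies, rose by 2.44 ± 0.64 (edgeR adjusted p = 0.0464). Parp9 and Dtx3l, whose products work as a pair and whose genes overlap, rose by 1.75 ± 0.27 and 1.77 ± 0.32 (edgeR adjusted p = 0.00623 and 0.0119), and their reads may not be told apart. Mavs, the adaptor of cytosolic RNA sensing, was at 3.97, 7.31 and 5.47 CPM and 23.5, 27.3 and 35 CPM (2.36 ± 0.32, edgeR adjusted p = 0.0039). Zc3hav1, an antiviral RNA-binding protein, was at 5.27, 3.14 and 3.76 CPM and 23.8, 18.8 and 32.5 CPM (2.62 ± 0.29, edgeR adjusted p = 0.00153).

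In MHC class I presentation, B2m (chromosome 2, 122147686 to 122153083, plus strand), the shared light chain, was at 45.1, 23 and 23.9 CPM in the brains and 147, 133 and 169 CPM in the tumors (2.29 ± 0.40, edgeR adjusted p = 0.0102). H2-K1, a heavy chain with close copies, was at 18.4, 6.36 and 6.15 CPM and 67.6, 75.7 and 63.2 CPM (2.74 ± 0.52, edgeR adjusted p = 0.0136). Brain 1 was the highest brain for both and was well below every tumor. Tap2, of the peptide transporter, was at 5.73, 1.64 and 2.11 CPM and 16.6, 10.6 and 11 CPM (2.01 ± 0.47, edgeR adjusted p = 0.0315). The immunoproteasome genes Psmb8 and Psmb9 were at 5.1, 4.51 and 5.66 and 2.06, 1.69 and 2.77 CPM in the tumors, from 0.922 to 1.52 and 0.427 to 0.612 CPM in the brains (2.03 ± 0.30 and 2.13 ± 0.50, edgeR adjusted p = 0.00532 and 0.0303). Myc tumors held more: 35 of the 39 interferon-stimulated genes and 18 of the 18 class I genes were lower in SHH than in Myc tumors, against 19% of all genes. For Isg15 that difference was -4.54 ± 0.66 (edgeR adjusted p = 0.000214) and for B2m -2.68 ± 0.40 (0.000236). Of the 13 interferon and class I calls named here, 4, 1 and 7 were lost without SHH tumor 1, 2 and 3, 4, 9 and 10 without brain 1, 2 and 3, and 4 with sex as a covariate, with edgeR adjusted p up to 0.175. Limma voom did not call Isg15, Ifit1 or Oas1a (adjusted p up to 0.202).

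**Figure D5:**
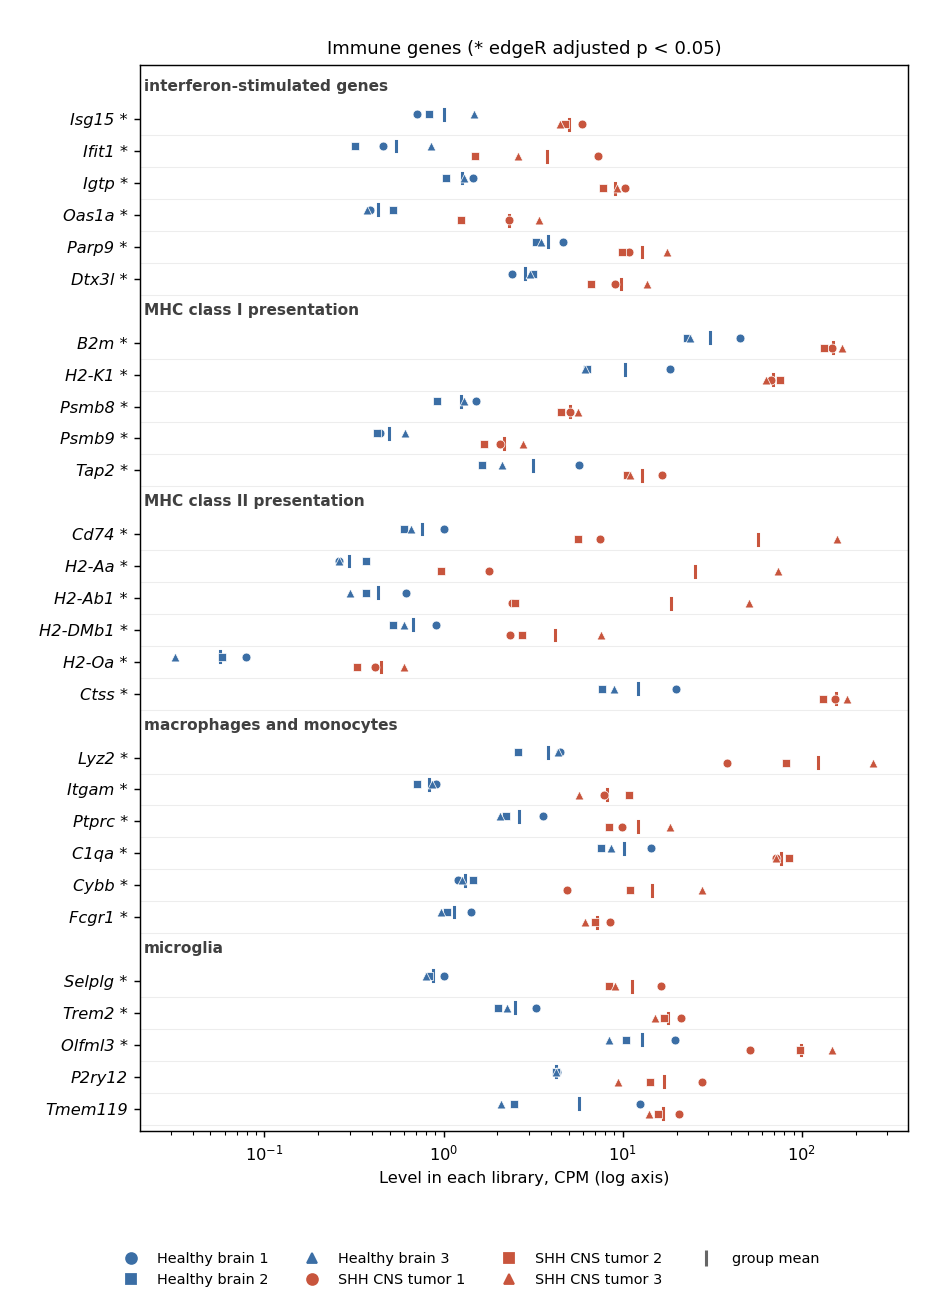
CPM of interferon, MHC and myeloid genes in each healthy brain (blue) and SHH CNS tumor (red) on a log axis, with a symbol per library number and a bar at each group's mean. All tumors lie to the right of all brains for every gene shown, the 3 tumors lie close together for B2m and Ctss, and SHH tumor 3 lies far to the right of the other tumors for Cd74, H2-Aa and H2-Ab1.

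Among MHC class II genes and genes of macrophages and microglia some rose and none fell. Of 12 class II presentation genes 6 rose, none fell and 11 lay above all brains in all tumors (median 3.31). The list summed to 31.9, 17.9 and 21.2 CPM in the brains and 184, 163 and 543 CPM in the tumors. Cd74, the invariant chain, was at 1.01, 0.602 and 0.66 CPM and 7.44, 5.64 and 157 CPM (6.23 ± 1.43, edgeR adjusted p = 0.0296). H2-Aa, an alpha chain, was at 0.262, 0.369 and 0.262 CPM and 1.8, 0.964 and 73.2 CPM (6.41 ± 1.59, edgeR adjusted p = 0.0385), and its partner H2-Ab1 at 0.619, 0.369 and 0.302 CPM and 2.42, 2.49 and 51 CPM (5.43 ± 1.31, 0.0346). SHH tumor 3 set these folds: SHH tumors 1 and 2 were above the brains by far less. Ctss, a protease that trims the invariant chain, was at 19.8, 7.65 and 8.89 CPM and 154, 131 and 179 CPM, and the 3 tumors were alike (3.68 ± 0.59, edgeR adjusted p = 0.00757). H2-DMb1, of the peptide exchange complex, rose by 2.63 ± 0.66 and H2-Oa by 2.95 ± 0.60 from levels below 1 CPM (edgeR adjusted p = 0.0392 and 0.0173).

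Of 30 genes of macrophages and monocytes 10 rose, none fell and 24 lay above all brains in all tumors (median 1.88). The list summed to 861, 381 and 432 CPM in the brains and 2651, 1542 and 2231 CPM in the tumors, so every tumor was above every brain. Lyz2 (chromosome 10, 117277331 to 117282321, minus strand), which encodes lysozyme and has a close copy, was at 4.49, 2.59 and 4.33 CPM and 38.2, 81.5 and 249.8 CPM (5.02 ± 0.93, edgeR adjusted p = 0.0127). SHH tumor 3 was the highest and SHH tumor 1 the lowest of the tumors. Itgam, the CD11b integrin, was at 0.913, 0.708 and 0.859 CPM and 7.86, 10.8 and 5.74 CPM (3.30 ± 0.57, edgeR adjusted p = 0.0101), and Ptprc, the CD45 antigen of all leukocytes, at 3.59, 2.24 and 2.08 CPM and 9.87, 8.39 and 18.3 CPM (2.21 ± 0.46, 0.0186). C1qa, of complement, was at 14.3, 7.54 and 8.59 CPM and 72.2, 84.5 and 71.9 CPM (2.91 ± 0.68, edgeR adjusted p = 0.0312), nearly the same in each tumor. Cybb, of the phagocyte oxidase, was at 1.21, 1.47 and 1.26 CPM and 4.87, 11 and 27.8 CPM (3.47 ± 0.74, edgeR adjusted p = 0.0208). The other members that rose were the antibody receptor gene Fcgr1 (2.65 ± 0.70), Ms4a7 (3.01 ± 0.67), Cd84 (2.12 ± 0.37), and the lysosomal genes Laptm5 (1.76 ± 0.47) and Ctsd (1.39 ± 0.26), with edgeR adjusted p of 0.0471, 0.0257, 0.0101, 0.0487 and 0.0127.

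Of 13 microglial genes 4 rose, none fell and 11 lay above all brains in all tumors (median 2.19). The list summed to 1044, 348 and 344 CPM in the brains and 1429, 901 and 627 CPM in the tumors, and brain 1 was above SHH tumors 2 and 3. Selplg, an adhesion ligand, was at 1, 0.825 and 0.795 CPM and 16.3, 8.44 and 9.11 CPM (3.69 ± 0.55, edgeR adjusted p = 0.00532). Trem2, a lipid receptor of microglia near damage, was at 3.29, 2.01 and 2.27 CPM and 21.3, 17 and 15.2 CPM (2.82 ± 0.60, edgeR adjusted p = 0.0198). Olfml3 also rose (2.95 ± 0.50, edgeR adjusted p = 0.00909). Clec7a, the dectin 1 gene that activated microglia switch on and that the annotation calls a polymorphic pseudogene, was at 0.199, 0.369 and 0.39 CPM and 17, 7.17 and 25.8 CPM (5.70 ± 0.90, edgeR adjusted p = 0.00663). P2ry12 and Tmem119, markers of resting microglia, were at 27.7, 14.2 and 9.4 and 20.8, 15.7 and 14 CPM in the tumors and at 4.3, 4.24 and 4.26 and 12.5, 2.47 and 2.09 CPM in the brains. They lay above the brains in all tumors without passing (edgeR adjusted p = 0.103 and 0.402).

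The complement receptor gene C3ar1 was the only called member of 30 complement and chemokine genes (2.44 ± 0.59, edgeR adjusted p = 0.036), of which 16 lay above all brains. Of 22 tested genes of T and NK cells none passed in edgeR (5 had an unadjusted p under 0.05), DESeq2 called 2 and limma voom 3, and the list summed to 11.3, 12.8 and 15.4 CPM in the brains and 7.16, 6.75 and 6.66 CPM in the tumors. The called interferon, MHC and myeloid genes all rose, but the order of the tumors differed between genes. Which cells carried them was not tested. Of the 30 macrophage genes 28 were lower in SHH than in Myc tumors, Lyz2 with a difference of -3.13 ± 0.83 (edgeR adjusted p = 0.00864), against 19% of all genes. Of the 13 microglial genes 2 were higher and 2 lower than in Myc tumors. Of the 21 named calls of class II, macrophage and microglial genes, Clec7a and C3ar1, 2, 4 and 14 were lost without SHH tumor 1, 2 and 3, 10, 18 and 20 without brain 1, 2 and 3, and 12 with sex as a covariate, with edgeR adjusted p up to 0.304. Among the calls lost with sex as a covariate were Cd74, H2-Aa, H2-Ab1, C1qa, Ptprc and Trem2, and limma voom did not call Cd74, H2-Aa or H2-Ab1 (adjusted p up to 0.354).

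Some genes of cholesterol synthesis fell. Of 24 tested 3 fell, none rose and 15 lay below all brains in all tumors (median -0.79). Hmgcs1, an early enzyme, was at 545, 872 and 835 CPM in the brains and 235, 314 and 133 CPM in the tumors (-1.72 ± 0.43, edgeR adjusted p = 0.04). Fdps, which makes farnesyl diphosphate, was at 10.1, 8.85 and 8.6 CPM and 1.73, 3.78 and 1.8 CPM (-1.91 ± 0.48, edgeR adjusted p = 0.0394). Srebf1, a regulator of lipid genes outside that list and named after its values were seen, rose from 102, 43.1 and 48.7 CPM to 233, 232 and 501 CPM (2.32 ± 0.34, edgeR adjusted p = 0.00532). Slc16a1, a lactate transporter, was the only called gene of 30 of glycolysis and hypoxia, at 30.8, 23.8 and 27 CPM and 118, 69.8 and 80.9 CPM (1.72 ± 0.33, edgeR adjusted p = 0.015). Napepld, which makes N-acylethanolamine lipids, was at 5.93, 7.07 and 5.31 CPM and 62.4, 80.5 and 67.3 CPM, alike in each tumor (3.52 ± 0.47, edgeR adjusted p = 0.00359). Of these 5 calls, 2, 0 and 2 were lost without SHH tumor 1, 2 and 3, 2, 3 and 3 without brain 1, 2 and 3, and 0 with sex as a covariate, with edgeR adjusted p up to 0.162.

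Some calls came from lists of other cells or tissue, and that of Mobp followed a library that stood apart in such markers. Mobp, a myelin protein and the only called gene of 20 of myelinating oligodendrocytes, was at 0.222, 0.0971 and 0.0398 CPM in the brains and 1371, 0.447 and 18.3 CPM in the tumors (11.89 ± 2.73, edgeR adjusted p = 0.029). SHH tumor 1, the tumor high in myelin markers, set that fold, and SHH tumor 2 was barely above the brains. Mbp, the major myelin gene, was at 48.7, 36.5 and 35.8 CPM and 4017, 28 and 65.1 CPM, overlapped and did not pass (edgeR adjusted p = 0.093). Prph, which encodes peripherin of peripheral sensory neurons, was at 68.8, 7.01 and 4.43 CPM in the brains and 1.37, 0.705 and 0.759 CPM in the tumors. Brain 1 was far above the others, yet all tumors were below brains 2 and 3 as well (-4.83 ± 1.15, edgeR adjusted p = 0.033). Acta1, the actin of skeletal muscle, was likewise at 138, 2.91 and 3.1 CPM in the brains and did not pass (edgeR adjusted p = 0.124). Mcidas, which starts the formation of multiple cilia and was the only called gene of 28 of ependyma and choroid plexus, fell from 0.468, 0.854 and 1.14 CPM to 0, 0 and 0.0113 CPM (-6.78 ± 1.35, edgeR adjusted p = 0.0162). Prrx1, a homeobox gene of mesenchyme, was at 25.6, 13.6 and 11.8 CPM and 51.2, 197 and 238 CPM (3.25 ± 0.85, edgeR adjusted p = 0.046), the only called gene of 40 of collagens and fibroblasts. That list leaned the other way, with a median of -0.93, and 2 members lay above and 12 below all brains in all tumors. Of these 4 calls, 2, 3 and 4 were lost without SHH tumor 1, 2 and 3, 3, 4 and 4 without brain 1, 2 and 3, and 2 with sex as a covariate, with edgeR adjusted p up to 0.18.

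Among the largest changes outside the lists, Alox15, a lipoxygenase, was at 0.667, 0.136 and 0.302 CPM in the brains and 19.5, 10.1 and 125 CPM in the tumors (7.12 ± 1.54, edgeR adjusted p = 0.0223). Nkx2-3, a homeobox gene of gut and spleen, was at 0.572, 0.534 and 0.35 CPM and 3.48, 16.5 and 66.3 CPM (5.88 ± 1.30, edgeR adjusted p = 0.0402). SHH tumor 3 was the highest for both genes. Cyp26b1, which degrades retinoic acid, fell from 19.2, 49.2 and 36.9 CPM to 2.78, 1.22 and 3.17 CPM (-3.87 ± 0.55, edgeR adjusted p = 0.00446). Otof, of synaptic vesicle release in hair cells, was at 24.9, 36.4 and 46.3 CPM and 5.67, 0.705 and 1.08 CPM (-3.86 ± 1.02, edgeR adjusted p = 0.0478). Ebf3, a factor of early neurons, was at 73.1, 120.0 and 195 CPM and 19.6, 4.42 and 6.66 CPM (-3.66 ± 0.89, edgeR adjusted p = 0.0356), and Hs3st2, which modifies heparan sulfate, at 6.34, 13.2 and 17.2 CPM and 1.75, 1.15 and 0.419 CPM (-3.47 ± 0.88, 0.0471). SHH tumor 1 was the highest of the tumors for Otof, Ebf3 and Hs3st2. Of these 6 calls, 1, 4 and 5 were lost without SHH tumor 1, 2 and 3, 5, 5 and 5 without brain 1, 2 and 3, and 4 with sex as a covariate, with edgeR adjusted p up to 0.178.

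The genes with the smallest adjusted p were often of modest fold and little spread. Amz2, a metallopeptidase, was at 192, 234 and 229.7 CPM in the brains and 66.4, 84.5 and 74.8 CPM in the tumors (-1.54 ± 0.16, edgeR adjusted p = 0.00084). Lsm14b, of RNA granules, was at 239, 235 and 226 CPM and 86.5, 84.3 and 73.3 CPM (-1.52 ± 0.18, edgeR adjusted p = 0.00242). Within each group these libraries differed little. H3f3b, a gene of histone H3.3 with many near copies, fell by 1.54 ± 0.20, Srgap2, of neuronal migration, by 1.51 ± 0.20 and the adaptor Dok4 by 2.90 ± 0.39 (edgeR adjusted p = 0.00359, 0.00359 and 0.00365). Lsm11, of histone mRNA processing, fell by 2.69 ± 0.38, and the orphan receptor gene Gpr21, at 15, 34.4 and 31.9 CPM in the brains and 1.67, 1.25 and 0.985 CPM in the tumors, by 4.38 ± 0.62 (edgeR adjusted p = 0.0044 and 0.00425).

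Among the genes that rose, Inppl1, a lipid phosphatase, was at 36.5, 28.1 and 21.5 CPM in the brains and 97.3, 139 and 211 CPM in the tumors (2.38 ± 0.30, edgeR adjusted p = 0.00312). Calcrl, a receptor of CGRP and adrenomedullin found in endothelium, was at 11.5, 12.8 and 10.5 CPM and 38.7, 45.1 and 51.1 CPM (1.96 ± 0.27, edgeR adjusted p = 0.00425). Of 28 listed genes of endothelium and blood-brain barrier none passed in edgeR (5 had an unadjusted p under 0.05), DESeq2 called 2 and limma voom 10. In that list 3 lay above and 8 below all brains in all tumors (median -0.41). Nab2, a corepressor of early growth response factors, rose by 1.89 ± 0.25 (edgeR adjusted p = 0.00359). The redox genes Gss, Cyb5r1 and Msrb2 rose by 1.82 ± 0.24, 2.01 ± 0.28 and 2.21 ± 0.31 (edgeR adjusted p = 0.00359, 0.0039 and 0.00425). All 3 tumors lay on one side of all 3 brains for each of these 13 genes, and each stayed called without any single one of the 6 libraries.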

How the data were processed

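Poly(A) RNA of tumors and brains was sequenced from stranded libraries, per the labels' protocols, and per the submitters' processing notes aligned to mm10 with STAR 2.5.3a. The deposited values are raw counts per gene. The counting tool, its strand setting and its annotation are not given in the sources used here. IDs were named from GENCODE M21 (GRCm38). Here edgeR 4.0.16 (R 4.3.3) fitted the counts of all 17 libraries with a mean per group (TMM, default filter with a minimum count of 10, robust quasi-likelihood). That filter kept 99.96% of the counts. Alternatives were RLE scaling, filters, DESeq2 1.42.0, limma 3.58.1 voom, only the 2 groups, a replicate block, sex, file numbers and libraries left out. Genes were named by size (15 per direction), by adjusted p (10 per direction), from a preset set or from described lists, with exceptions said in place, and some genes so selected are not reported here. Members and lists were chosen with earlier results of these data known. The model was tested on simulated data. Promoters came from a RefSeq table.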

Additional observations from a re-analysis of the deposited data

Results flagged for a closer look

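For 6 genes named in the report the change against healthy brain went up in SHH tumors and down in Myc CNS tumors, both past the edgeR threshold, and the direct contrast of SHH and Myc tumors was called too. Both changes are against the same 3 brains. Of the 6 calls of SHH tumors against brain, only that of Sox13 held without each single library of these groups. With sex as a covariate those of Ptch1, Gsx1, Wnt3 and Nkx2-3 were lost. Ptch1, which encodes the Hedgehog receptor, was higher in SHH than in Myc tumors by 3.68 ± 0.51 on the log2 scale (edgeR adjusted p = 0.000166), and the change against brain was 2.13 ± 0.54 in SHH and -1.55 ± 0.48 in Myc tumors. Gsx1, a homeobox gene of dorsal progenitors, differed by 11.11 ± 1.18 (3.01e-05). The Wnt ligand gene Wnt3 differed by 8.34 ± 0.72 (8.45e-06) and the Wnt receptor gene Fzd10 by 7.65 ± 0.66 (8.45e-06). Sox13 differed by 4.84 ± 0.45 (1.46e-05), with changes against brain of 3.69 ± 0.48 and -1.15 ± 0.40. Nkx2-3, a homeobox gene of gut and spleen, differed by 10.08 ± 1.42 (0.000683).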

How the results depend on the processing

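The counts of genes that rose and fell depended on the settings. They were 319 and 266 with every gene that had a count, 1592 and 1283 with DESeq2, 3248 and 4250 with limma voom, 281 and 233 with sex as a covariate, 5 and 5 within one range of file numbers, and 304 and 170 without brain 1 and SHH tumor 1. Without 1 library they ranged from 27 to 513 and from 35 to 308, lowest without brain 3. The number called between SHH and Myc tumors stayed within 1.5 times of 8788 in all settings run, from 6205 to 10213. No setting left out a Myc tumor, so how far that number depends on single Myc libraries was not tested. Of the 940 calls, 933 were called again by DESeq2 and 926 by limma voom, and every one with a value kept its direction in each alternative.

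Same-numbered brains and tumors did not deviate together (r = 0.0105, 0.0292 and -0.115), so no pairing by number was seen. With 3 libraries a group these correlations cannot exclude one. With the replicate number as a block 460 rose and 357 fell over 17 libraries, and 1 and 0 when only the 2 groups were fitted.

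Smarcb1 was at -3.09 with only the 2 groups fitted (edgeR adjusted p = 0.0872), at -3.89 with the block added to that (0.113) and at -2.68 within one range of file numbers (0.134). It ranged from -4.82 to -2.66 without 1 library. Gli3 changed sign with sex as a covariate (-0.04), within the range of file numbers (-0.12) and without SHH tumor 2 (-0.24). Atoh1 changed sign within that range (-0.22). Ezh2 changed sign with the replicate block (-0.00), within that range (-0.12) and without SHH tumor 2 (-0.08), SHH tumor 3 (-0.17) or brain 1 (-0.21). Without 1 library they ranged from -0.24 to 0.4 (Gli3) and from -0.21 to 0.45 (Ezh2). None of these values passed, and the cause was not tested. Of 128 calls named in the report 27 held without each of the 6 libraries, 78 with sex as a covariate, 102 with the replicate block over 17 libraries, 68 without brain 1 and SHH tumor 1, 6 within the range of file numbers, 121 with limma voom and, of 125 tested, 92 with only the 2 groups fitted and 0 with the block added to that. DESeq2 gave no adjusted p for Smarcb1. The tumors had fewer counts than the brains, so genes of few counts are least precise there, and 3 libraries a group limit all tests.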
